A study of Mus musculus with 5 samples.

Results

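The control retina of the mouse at postnatal day 7 was described from 3 poly(A) RNA libraries, named control a, b and c after their titles, out of 5 libraries in the series. All columns labelled Ctrl were taken and no contrast with the libraries labelled Mettl14 cko was made. The labels give the tissue as retina and the age as postnatal day 7 for every pup. They give no strain, sex, pooling or treatment, and they do not say which alleles the controls carried. The symbol Six3 appears in the name of the deposited table and is not explained, so whether the controls held a Six3 driver or floxed alleles is not given in the sources used here. Whether the libraries stem from separate animals is not in the labels either, so the spread given below is that between these 3 libraries and may be partly technical. The study's title concerns Mettl14 and Mettl3 in retinal development, and the controls are its reference state.

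The retina at this age is still being built. Ganglion, horizontal, cone and most amacrine cells are born before birth in the mouse, while the last rods, bipolar cells and Müller glia are born in the first postnatal week. Rods outnumber every other retinal cell type, and in the second postnatal week their outer segments and ribbon synapses grow and the eyes open. Transcripts of late progenitors, of differentiating rods and of maturing inner neurons are therefore measured together in a single piece of tissue. In such bulk RNA, fewer cells of a type and less RNA per cell cannot be told apart.

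Control a held 26503943 counts, control b 27100918 and control c 24315693, over 22639, 23323 and 22073 genes with at least 1 count. Of 43432 genes in the table, 14051 reached 1 CPM (counts per 1000000 of the library total) in every library, 12839 of them protein-coding, and 17981 had no count in any. Protein-coding genes held 97.8% of counts ± 0.09 (SD, n = 3). For the rod list below, the counting error of its share was far below the spread between libraries. It held 1.95% of control a with an exact 95% binomial interval of 1.94% to 1.95%. For the smallest share, that of epithelial keratin genes, the interval's half-width was 16.0% to 19.3% of the share, and the SD between libraries was 17.4% of the mean. Such intervals cover counting error only.

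The abundance ranking joined mitochondrial transcripts, the translation and cytoskeleton machinery of any cell, glycolytic enzymes and photoreceptor genes. The mitochondrial gene mt-Co1, a subunit of cytochrome c oxidase, was highest, at 15053, 13237 and 20523 CPM. Eef1a1, the elongation factor that brings aminoacyl-tRNA to the ribosome, followed at 8501, 7851 and 8814 CPM. Tuba1a, the alpha-tubulin of growing neurons, was at 5959, 5257 and 5697 CPM. These values lay close together for Eef1a1 and Tuba1a, while mt-Co1 was higher in control c than in both others.

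Several of the 20 genes with the highest mean CPM were photoreceptor genes. Among them were the rod arrestin Sag, which ends the light response, and Prph2, a disc rim protein. Also among them were Rbp3, the retinoid carrier of the matrix between photoreceptors and pigment epithelium, Gnb1, the beta subunit of rod transducin, which other cells also use, the phosducin gene Pdc, and Nr2e3, a nuclear receptor that holds cone genes down in rods. Ldha (mean 4396 CPM) and Pkm (2749 CPM), which close glycolysis, and Ckb (3182 CPM), the brain-type creatine kinase, were also among the 20. So were mt-Cytb, mt-Nd1 and mt-Nd5 of the respiratory chain, Atp5b of the ATP synthase, the histone gene H3f3b, the ubiquitin gene Ubb and the chaperone gene Hspa8. In every library 15 genes were among the top 20, 75 among the top 100 and 796 among the top 1000.

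**Figure D1:**
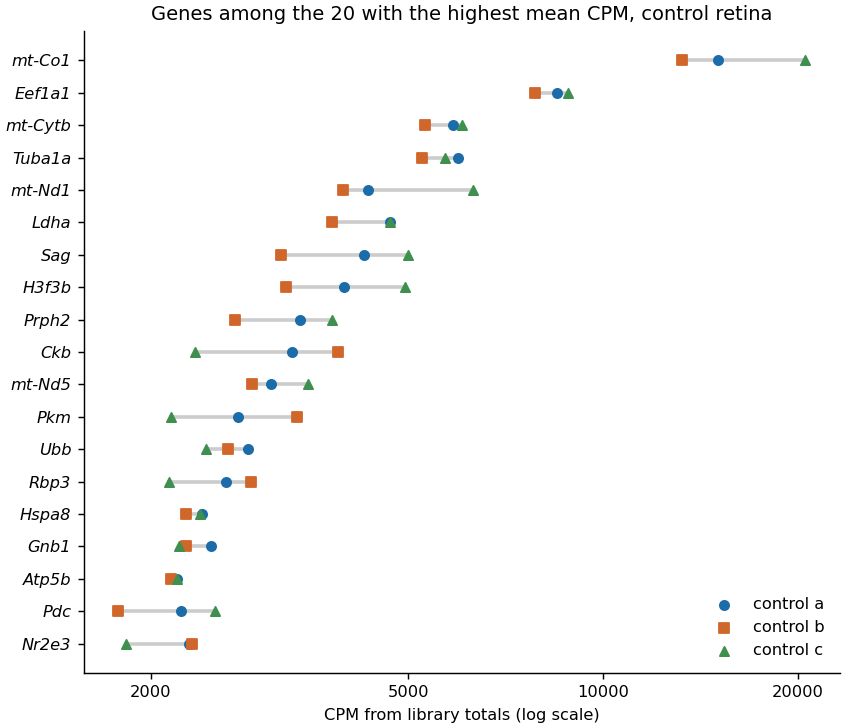
CPM (log scale, horizontal axis) of genes among the 20 with the highest mean over the 3 controls, 1 point per library and a grey bar from the lowest to the highest library. Control b is the lowest library for Sag (3178 CPM against 4276 and 4993) and the highest for Ckb and Pkm.

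Expression was spread over many genes. Together 1122, 1215 and 995 genes accounted for 50% of the counts in the 3 libraries (mean 1111 ± 110, SD, n = 3). The top 10 genes held 5.96%, 5.31% and 6.93% of counts. Control c was the most concentrated library by both measures and control b the least. Genes can be compared with each other only per length, for which counts were divided by the union exon length of the gene and scaled to a fixed sum of 1000000 per library (length-scaled units). On that scale the highest protein-coding genes were mt-Co1 (31663 length-scaled units), mt-Nd1 (15276), mt-Cytb (15224), Eef1a1 (10202), Tuba1a (9490), Rplp1 (6096), a protein of the ribosomal stalk, mt-Nd5 (5211), Ubb (4789) and mt-Nd2. A microRNA feature of 57 bases, Gm23935, stood above them at 40056 length-scaled units. That value joins its small length with 595, 613 and 1080 CPM in control a, b and c.

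The length used matters for single genes. Sag has a union exon length of 8904 bases, and its per-length level was 1402 length-scaled units, below Prph2 (3317), Rom1 (2643) and Nr2e3 (1950). By the length of its principal transcript its level was 4864 length-scaled units, above Pdc (3523) and Prph2 (2503). The order of photoreceptor genes by level is therefore not fixed by these data.

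The start regions of the photoreceptor genes are shown because many of them share a short motif. Crx, at 1733, 1729 and 1515 CPM, encodes the homeodomain factor that drives photoreceptor genes together with Otx2, and factors of this class bind the core TAATCC, which reads GGATTA on the other strand. Among the start regions of the photoreceptor lists (250 bases before to 50 after the annotated start, RefSeq, GRCm38.p6), 16 of 57 held the motif on either strand, or 28.1%. Of all 32851 start regions 7.06% held it, and of those belonging to genes that averaged at least 5 CPM 5.74%. The 57 regions belonged to 43 genes, some with several regions, and the other members of the lists had none. Counted by gene, 16 of 43 held the motif, or 37.2%. The share was 8.14% of all 27025 genes and 7.02% of those averaging at least 5 CPM. By list it was found in 5 of 13 rod, 2 of 17 cone and 9 of 27 shared photoreceptor regions. A match is a run of letters and not a measured binding site. The region of Sag, the photoreceptor gene with the highest CPM, and that of Crx itself are printed 5′ to 3′ on the strand of the gene, with the motif in capitals. Both were picked as the highest by CPM among the genes that held the motif. The regions of Prph2, Gnb1, Pdc, Nr2e3 and Nrl, which ranked between them by CPM, held no match. Sag lies at chr1:87803430-87803729 on the plus strand, and its match begins 87 bases before the start. Crx lies at chr7:15879906-15880205 on the minus strand, and its matches begin 94 and 21 bases before the start.
Sag: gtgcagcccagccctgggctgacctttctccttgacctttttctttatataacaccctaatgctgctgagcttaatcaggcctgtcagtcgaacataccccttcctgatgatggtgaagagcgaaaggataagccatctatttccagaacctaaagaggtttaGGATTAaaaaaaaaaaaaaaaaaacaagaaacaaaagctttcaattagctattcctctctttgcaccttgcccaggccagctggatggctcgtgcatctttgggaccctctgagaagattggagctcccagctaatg
Crx: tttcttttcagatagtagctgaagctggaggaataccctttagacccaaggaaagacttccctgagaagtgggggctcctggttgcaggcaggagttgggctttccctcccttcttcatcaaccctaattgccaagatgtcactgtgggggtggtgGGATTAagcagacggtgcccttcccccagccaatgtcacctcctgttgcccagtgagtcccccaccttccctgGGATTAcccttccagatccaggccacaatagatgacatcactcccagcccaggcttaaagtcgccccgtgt

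In control a, b and c the rod list took 1.95%, 1.70% and 1.94% of the library (mean 1.86% ± 0.143, SD, n = 3), and all 17 members exceeded 1 CPM in every library. Sag (chromosome 1, 87803680 to 87845158) was at 4276, 3178 and 4993 CPM, a highest-to-lowest ratio of 1.57, the widest of the list. The rod transcription factor Nrl was at 1805, 1687 and 1919 CPM, and its target Nr2e3 at 2294, 2319 and 1833 CPM. Nrl and Nr2e3 thus stayed within a narrower range, while Sag, Gngt1 (ratio 1.56) and Pde6g (ratio 1.52) were each lowest in control b.

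Members of the rod phototransduction cascade stood at very different levels. The catalytic phosphodiesterase subunit Pde6b was at 1735, 1600 and 1603 CPM and its inhibitory subunit Pde6g at 1211, 918 and 1394 CPM. The partner of Pde6b in the rod enzyme, Pde6a, was at 120, 110 and 110 CPM. The alpha subunit of rod transducin, Gnat1, was at 98.2, 94.4 and 78.5 CPM. Per length, Gnat1 stood at 91.1 length-scaled units against 1654 for Gnb1, which it pairs with in transducin, and Pde6a at 73.6 against 996 for Pde6b. These gaps were far wider than the spread between libraries, and they held by principal transcript, where Gnat1 was at 79.3 and Pde6a at 50.3. The channel subunits Cnga1 and Cngb1 had means of 313 and 434 CPM, and the exchanger gene Slc24a1 a mean of 18.6 CPM. Per length, Slc24a1 (10.9 length-scaled units) and the receptor gene Esrrb (10.1) were the lowest rod genes.

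Cone genes held 0.204%, 0.195% and 0.199% of counts (mean 0.199% ± 0.00491, SD, n = 3). Opn1sw, the short-wavelength cone opsin, was at 294, 280 and 320 CPM. Opn1mw, the middle-wavelength opsin, was at 1.70, 1.96 and 2.76 CPM and was the 1 cone gene of 14 that averaged under 5 CPM. Per length the 2 opsins were at 353 and 4.12 length-scaled units. Of the cone transducin genes, Gnb3 was at 707, 691 and 649 CPM, above Opn1sw in every library, and Gngt2 at 259, 226 and 170 CPM. Per length Gnb3 was at 790 length-scaled units, Gngt2 at 356 and Gnat2 at 144. The phosphodiesterase genes Pde6c (90.5) and Pde6h (59.4) and the cone arrestin gene Arr3 (69.4) were lower on that scale. Thrb, the thyroid hormone receptor that directs the middle-wavelength fate, had a mean of 61.2 CPM. Pde6h had the widest ratio of the list, 1.72.

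Genes shared by rods and cones held 1.94%, 1.87% and 1.97% of counts. The disc rim partners Prph2 (3401, 2699 and 3808 CPM) and Rom1 (1304, 1347 and 1303 CPM) were among them, as were Pdc and the microtubule protein gene Rp1 (1932, 1932 and 2329 CPM). Rom1 spanned a ratio of 1.03 and Prph2 one of 1.41. Of the transcription factors in this list 3 were less even: Otx2 was at 832, 1052 and 662 CPM, Neurod1 at 430, 599 and 367 CPM and Prdm1 at 103, 156 and 82.2 CPM. Each of these 3 factors was highest in control b and lowest in control c, and Prdm1 had the widest ratio of the list, 1.90. Crx, a factor of the same list, was more even, at 1733, 1729 and 1515 CPM. Its ratio was 1.14, with control a highest and control c lowest. Lowest per length was the guanylate cyclase gene Gucy2f, at 11.4 length-scaled units. The calcium sensor gene Guca1b followed at 14.4, against 365 for its relative Guca1a, and then Fscn2, an actin bundling protein, at 29.5.

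Photoreceptor genes had a lower median spread than all genes together. A gene was called variable when its highest-to-lowest CPM ratio was at least 2, which held for 580 of the 11640 genes that averaged at least 5 CPM, or 4.98%. None of the 56 rod, cone and shared photoreceptor genes above that mean was variable. The same held for 0 of 80 ribosomal protein and 0 of 15 ganglion cell genes. Once a smooth trend of each library on transcript length and GC content was removed (the length and GC trend), 1 cone gene was variable. Counts of variable list members below stand against these shares of all genes: 4.98%, and 1.89% with that trend removed. The median coefficient of variation was 8.55% for the rod, 11.8% for the cone and 11.1% for the shared list, against 14.3% for all 11640 genes. For all genes of 100 to 500 CPM the median was 12.9%. Members lay on both sides between control b and c, with Sag and Pde6h higher in c and Otx2 and Prdm1 higher in b. The median log2 ratio of b over c was -0.09, -0.08 and -0.04 for the 3 lists against 0.15 for all genes, and -0.23, -0.22 and -0.18 against 0.00 with TMM scaling, which adjusts library sizes to the bulk of genes.

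Ribbon synapse genes held 0.259%, 0.247% and 0.258% of counts, and 0 of 13 were variable. The vesicular glutamate transporter gene Slc17a7 was at 485, 424 and 517 CPM, the fusion protein gene Stx3 at 687, 608 and 752 CPM and the complexin gene Cplx3 at 341, 252 and 380 CPM. These were lowest in control b. The large scaffold genes Bsn (75.2, 82.0 and 52.3 CPM) and Pclo (74.6, 96.4 and 65.0 CPM) and the vesicle priming gene Unc13b (129, 211 and 121 CPM, ratio 1.74, the widest) were highest there. Egflam, the matrix ligand pikachurin of the photoreceptor terminal, was at 270, 284 and 232 CPM. The list's median log2 ratio of b over c was 0.29, and -0.21 with the length and GC trend removed.

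Markers of the inner neurons held smaller shares. Bipolar genes held 0.0393% ± 0.00433, amacrine genes 0.0747% ± 0.00714, horizontal genes 0.0233% ± 0.00399 and ganglion cell genes 0.0869% ± 0.0105 (SD, n = 3 each).

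In the bipolar list 16 of 20 members had a mean of at least 5 CPM. The calcium sensor gene Scgn was at 40.9, 28.9 and 53.0 CPM and Tmem215 at 75.5, 67.8 and 66.8 CPM. Among markers of mature ON bipolar cells, Grm6, the glutamate receptor at their dendrites, was at 30.8, 32.5 and 17.5 CPM. Pcp2 was at 14.0, 12.8 and 14.4 CPM. Per length Pcp2 stood above Grm6, at 22.8 against 15.3 length-scaled units, and by principal transcript it was at 59.4. Nyx, which anchors the transduction channel, was at 2.34, 2.03 and 1.69 CPM. The channel itself, Trpm1, was at 20.5, 30.2 and 33.4 CPM, highest in control c. The kinase gene Prkca had a mean of 56.8 CPM. Variable members numbered 4: Grik1, a kainate receptor subunit of OFF bipolar cells (20.3, 30.5 and 9.87 CPM, ratio 3.09), the receptor gene Gpr179 (2.56), the homeobox gene Lhx4 (2.30) and Rgs11, which speeds the ON response (2.27). Each of the 4 was highest in control b and lowest in control c, an order that held for 3.93% of the 11640 genes as variable genes.

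The amacrine list was led by Calb2, the calcium binding protein calretinin, at 285, 241 and 272 CPM. Gad1, which makes GABA, was at 69.2, 79.6 and 39.0 CPM and was the 1 variable member of 13 (ratio 2.04). Per length it was at 25.3 length-scaled units and its relative Gad2 at 5.46. On the CPM scale the glycine transporter gene Slc6a9 had a mean of 83.0 and the vesicular transporter gene Slc32a1, shared by GABA and glycine, one of 22.5. The secreted synaptic protein gene C1ql1 was at 32.7, 26.6 and 30.1 CPM. Genes of rarer amacrine types were near the limit, with the starburst genes Chat and Slc18a3 at means of 3.17 and 3.53 CPM and the dopaminergic marker Th at 1.05 CPM. The factor gene Ptf1a, which sets amacrine and horizontal fate in the embryo, had a mean of 0.571 CPM.

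Of 7 horizontal cell genes 5 had a mean of at least 5 CPM. Prox1, a homeobox gene that other retinal cells also express, was at 56.8, 80.3 and 45.1 CPM, and the septin gene Sept4 at 130, 135 and 111 CPM. Calb1 was at 9.92, 9.26 and 13.6 CPM. The selective fate genes Onecut1 and Lhx1 had means of 1.60 and 1.13 CPM, and Onecut2 was the variable member, at 7.55, 18 and 8.10 CPM.

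Ganglion cell genes moved together in another direction. The synuclein gene Sncg was at 173, 135 and 191 CPM, the growth cone gene Gap43 at 189, 148 and 187 CPM and the surface protein gene Thy1 at 125, 88.0 and 120 CPM. The fate gene Pou4f2 was at 13.4, 6.72 and 9.42 CPM, the widest ratio of the list at 1.99. Control b had the lowest value for 13 of the 15 genes, which it was for 31.5% of all genes, and 0 of the 15 were variable. Their median log2 ratio of b over c was -0.44, and it stayed negative with other library scalings (-0.59 with TMM, -0.60 with DESeq2 size factors) and without the length and GC trend (-0.39). Nefl, the neurofilament light chain, was an exception at 192, 186 and 170 CPM.

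Müller glia genes held 0.218%, 0.262% and 0.163% of counts (mean 0.214% ± 0.0495, SD, n = 3), and 12 of 15 had a mean of at least 5 CPM. Apoe, a lipid carrier, was at 390, 483 and 299 CPM, the retinoid binding protein gene Rlbp1 at 466, 437 and 378 CPM and the filament gene Vim at 412, 550 and 241 CPM. Glul, which makes glutamine from glutamate, was at 152, 204 and 111 CPM. Channels of mature glia were low, with Kcnj10 at a mean of 4.28 CPM and the water channel gene Aqp4 at 0.978 CPM. Variable members were Slc1a3, the glial glutamate transporter (162, 204 and 88.5 CPM, ratio 2.31), Dkk3 (208, 296 and 129 CPM) and Vim. The list's median log2 ratio of b over c was 0.66, 0.52 with TMM and 0.55 without the length and GC trend. With library totals control c was lowest for 10 of the 12 genes, against 53.7% of all genes.

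Progenitor genes followed the same order, with 0.0912%, 0.113% and 0.0724% of counts. The cell cycle gene Ccnd1 was at 266, 300 and 203 CPM and the homeobox gene Rax at 141, 175 and 123 CPM. Notch1, the receptor that keeps progenitors undifferentiated, was at 102, 150 and 64.5 CPM and was variable. Six3, an eye field gene, was at 80.8, 84.6 and 65.8 CPM, and its relative Six6 at 80.6, 83.1 and 90.6 CPM. Control b was highest for 9 of the 10 genes averaging at least 5 CPM, against 49.1% of all genes, and Six6 was the exception. Notch1, Rax and Vim are found in both progenitors and glia, so the lists share sources.

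Genes of neurogenic precursors held 0.184%, 0.199% and 0.185% of counts. Neurod4 was at 751, 799 and 814 CPM, Hes6 at 321, 343 and 314 CPM and Insm1 at 360, 366 and 388 CPM, each within a ratio of 1.09. Atoh7, the ganglion cell fate gene of the embryo, was at 1.09, 1.03 and 1.15 CPM. Gadd45g (27.1, 44.4 and 15.5 CPM, ratio 2.86) and the Notch ligand gene Dll4 (ratio 2.37) were variable.

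Transcripts of cell division genes were still counted. Of 18 proliferation genes averaging at least 5 CPM, 7 were variable, against 4.98% of all genes. Mki67, a marker of cycling cells, was at 64.0, 134 and 69.9 CPM, and Cenpf of the kinetochore at 24, 56.3 and 25.7 CPM. The replication helicase genes Mcm3 (7.58, 13.4 and 4.69 CPM, ratio 2.85) and Mcm5 (24.3, 37.9 and 16.5 CPM) were also highest in control b. So was Top2a, which untangles replicated DNA, at 83.9, 124 and 113 CPM. With the length and GC trend removed 2 of the 18 were variable, against 1.89% of all genes. Other members were not highest in control b. The helicase gene Mcm7 was at 215, 191 and 173 CPM. The polymerase clamp gene Pcna was at 182, 146 and 230 CPM and the cyclin kinase gene Cdk1 at 27.9, 23.6 and 36.5 CPM, lowest in control b. Genes of immature neurons were led by Dpysl3 (728, 809 and 571 CPM), Stmn3 (394, 305 and 493 CPM) and Stmn1 (347, 443 and 312 CPM), which act on microtubules and growth cones. The neuronal tubulin gene Tubb3 was at 292, 300 and 175 CPM, and Dcx, of migrating neurons, at 31.1, 43.3 and 33.8 CPM. Tubb3 had the widest ratio, 1.71, and 0 of the 9 were variable.

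**Figure D2:**
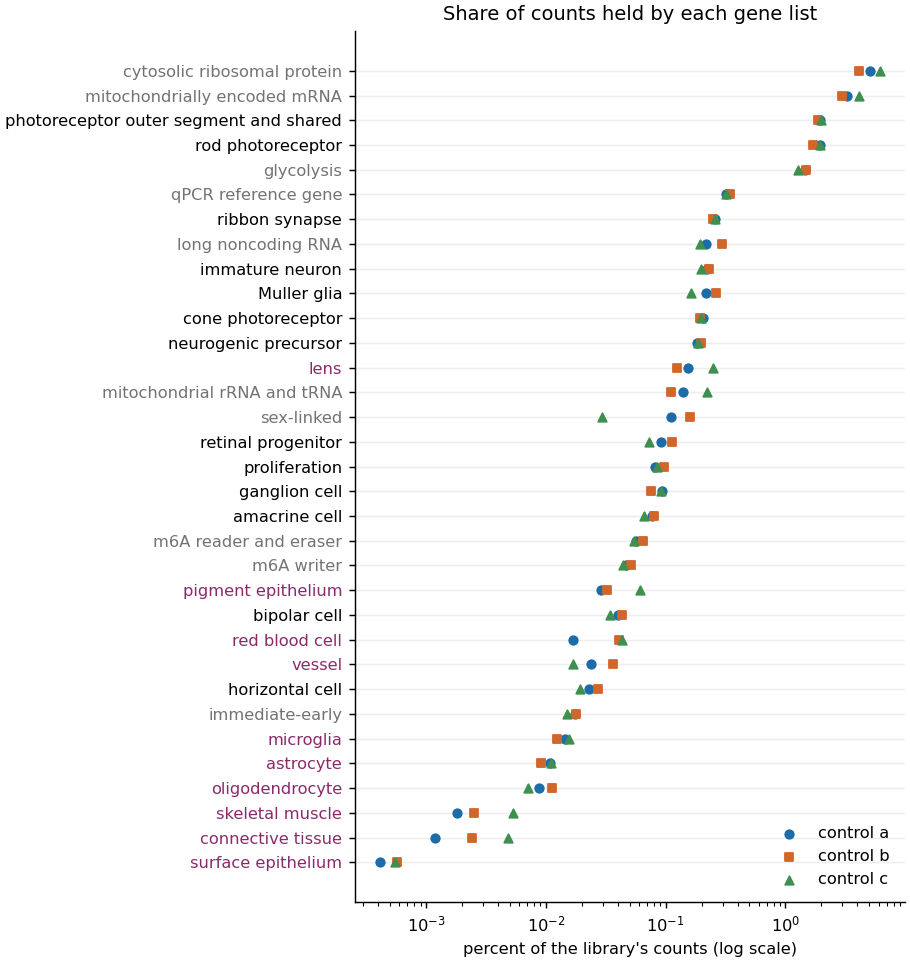
Percent of a library's counts (log scale, horizontal axis) held by each gene list, 1 point per control library. List names in black are retinal cell types and states, in purple other cell types and tissues, and in grey functional groups. Rod genes hold 1.70% to 1.95%, and the lens list ranges from 0.125% to 0.251% with control c highest.

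The writers of N6-methyladenosine (m6A), the methyl mark of messenger RNA that the study's target genes make, were all expressed. The RNA-binding subunit Mettl14 (chromosome 3, 123368297 to 123386108) was at 41.1, 48.2 and 36.0 CPM from library totals, a ratio of 1.34. Mettl3 (chromosome 14, 52294841 to 52305128), which carries the catalytic site, was at 71.7, 73.5 and 61.4 CPM, a ratio of 1.2. The adaptor gene Wtap was at 107, 105 and 121 CPM. Per length Wtap was at 54.0 length-scaled units ± 1.36, Mettl3 at 41.4 ± 6.76 and Mettl14 at 17.2 length-scaled units. The scaffold gene Virma was at 82.5, 99.4 and 79.3 CPM, the zinc finger gene Zc3h13 at 59.7, 76.9 and 49.0 CPM and the RNA-binding gene Rbm15b at 80.9, 81.8 and 72.9 CPM. Rbm15 (12, 14.5 and 9.13 CPM, ratio 1.58, the widest) and the ubiquitin ligase gene Cbll1 (11.8, 13.0 and 11.8 CPM) were lowest. None of the 8 writers was variable. Control b was highest for 7 of them, against 49.1% of all genes, and Wtap was the exception. Their median log2 ratio of b over c was 0.29 against 0.15 for all genes, or 0.15 against 0.00 with TMM. Of the readers and erasers 0 of 7 were variable. The reader genes Ythdf3 and Ythdf1 were at 115, 143 and 123 CPM and at 77.5, 71.7 and 74.4 CPM, Ythdf2 at 48.6, 59.3 and 38.6 CPM (ratio 1.54, the widest), and the demethylase genes Fto and Alkbh5 at means of 116 and 79.0 CPM.

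Glycolysis genes held 1.46%, 1.5% and 1.29% of counts. Photoreceptors turn much of their glucose to lactate even with oxygen at hand, and Ldha, the subunit that favours lactate, was at 4689, 3806 and 4693 CPM. Per length it was at 4019 length-scaled units against 472 for Ldhb, the subunit that favours pyruvate. Pkm was at 2732, 3365 and 2151 CPM, Aldoa at 1613, 1770 and 1395 CPM and Eno1 at 2213, 2407 and 1787 CPM. Hk2, the hexokinase found in mature photoreceptors, was at 12.6, 12.1 and 7.4 CPM, and per length at 5.51 length-scaled units against 80.1 for Hk1. Pfkp, a platelet-type phosphofructokinase, was the 1 variable member of 17 (152, 239 and 96.1 CPM, ratio 2.48). Gapdh had a mean of 118 CPM. It has many processed pseudogenes, and how reads with several matches were counted is not given in the sources used here.

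Genes used as references in quantitative PCR differed in steadiness. Ywhaz was at 430, 436 and 453 CPM and Tbp at 87.7, 88.1 and 94.1 CPM, ratios of 1.05 and 1.07 with library totals. Actb (chromosome 5, 142903115 to 142906754), the cytoskeletal actin, was at 944, 1324 and 573 CPM, the 1 variable gene of 11 with a ratio of 2.31, and Ppia was at 1049, 863 and 1415 CPM. Control b was thus the highest library for Actb and the lowest for Ppia. Immediate-early genes, which neurons switch on with activity or during dissection, held 0.0175%, 0.0178% and 0.0151% of counts and 0 of 6 were variable. Jun was at 76.2, 88.6 and 66.1 CPM, Ier2 at 15.4, 18.3 and 12.8 CPM (ratio 1.43, the widest), Egr1 at 34.0, 26.2 and 28.6 CPM, and Fos had a mean of 3.80 CPM. Long noncoding RNAs held 0.218%, 0.293% and 0.194% of counts. Malat1 was at 948, 1484 and 710 CPM, Miat at 223, 373 and 140 CPM (ratio 2.66, the widest) and H19 at 118, 79.8 and 198 CPM. These 3 were variable, with H19 in the opposite order to the other two, while Gas5 (143, 131 and 178 CPM) and Rian (249.2, 233 and 299 CPM) stayed within a ratio of 1.36. The list's median log2 ratio of b over c was 0.74, and 0.0030 with the length and GC trend removed, where 1 of 11 was variable.

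Mitochondrially encoded messenger RNAs held 3.27%, 2.96% and 4.16% of counts (mean 3.46% ± 0.618, SD, n = 3), and control c was highest for 10 of the 12 with a mean of at least 5 CPM, against 30.7% of all genes. Their median log2 ratio of b over c was -0.40, and it turned to 0.39 with the length and GC trend removed. The mt-Nd1 gene of complex I was at 4335, 3969 and 6296 CPM and mt-Cytb of complex III at 5865, 5315 and 6058 CPM. Levels across the mitochondrial genome were very uneven. The genes mt-Co2, mt-Atp8, mt-Atp6, mt-Co3 and mt-Nd3, which lie next to each other, stood per length at 584, 30.2, 724, 274 and 355 length-scaled units, against 31663 for the neighbouring mt-Co1. The mt-Nd4l gene, which overlaps mt-Nd4, was the most variable of the list at 8.98, 4.65 and 18.5 CPM. Mitochondrial ribosomal and transfer RNAs, most of which carry short or no poly(A) tails, held 0.139%, 0.112% and 0.223% of counts, with mt-Rnr2 at 1078, 882 and 1720 CPM, mt-Rnr1 at 240, 178 and 397 CPM, mt-Tp at 21.3, 20.1 and 33.8 CPM and mt-Tl2 at 9.73, 7.82 and 27.1 CPM (ratio 3.46). For these the median log2 ratio of b over c was -0.91, and it turned to 0.24 with the trend removed.

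A nuclear copy of this stretch on chromosome 1, between 24612775 and 24616197 on GRCm38, has genes of its own in the table, and the sequences are shown because a read from an identical stretch cannot be placed by sequence. Gm28437 was identical to mt-Co3 over 783 of 783 aligned bases, Gm28661 to mt-Co2 over 681 of 681 and Gm10925 to mt-Atp6 over 678 of 678. Gm28438 matched mt-Nd3 at 344 of 345 bases, with the substitution T3C counted from the first base of the mitochondrial gene, and Gm29216 matched mt-Co1 at 482 of 483, with A1066T. Gm28437 itself was counted at 186, 40.7 and 351 CPM, a ratio of 8.62, and held 76.9%, 44.1% and 76.3% of the summed counts of the pair. The sum of Gm28437 and mt-Co3 was 242, 92.3 and 460 CPM. The part that the copies play in the low levels of their mitochondrial partners was not tested. The first 60 bases of each are printed 5′ to 3′, with capitals at the substituted base.
mt-Co3: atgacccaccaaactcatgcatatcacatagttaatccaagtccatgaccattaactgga
Gm28437: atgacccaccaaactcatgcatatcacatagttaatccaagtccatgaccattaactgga
mt-Nd3: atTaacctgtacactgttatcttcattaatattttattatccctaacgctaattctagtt
Gm28438: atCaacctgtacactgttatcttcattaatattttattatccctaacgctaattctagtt

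Cytosolic ribosomal protein genes formed the largest share of any list, 5.07%, 4.12% and 6.12% of counts (mean 5.10% ± 1.0, SD, n = 3), with 80 of 84 members at a mean of at least 5 CPM. Rpsa, the laminin receptor and small subunit protein, was at 1971, 1523 and 2625 CPM and Rplp1 at 978, 756 and 1307 CPM. Rps3a1 was at 897, 753 and 1282 CPM and Rps15 at 625, 544 and 645 CPM. Rps27l, a relative of Rps27, had the widest ratio at 1.98 (85.5, 59.4 and 118 CPM). Control b was lowest for 77 of the 80 genes, against 31.5% of all genes, and control c highest for 68, against 30.7%. Even so, 0 of the 80 were variable, with a median ratio of 1.52. Exceptions were Rps9 (762, 833 and 721 CPM), highest in control b, and Rplp0 (1392, 1390 and 1301 CPM), steady across libraries. The median log2 ratio of b over c was -0.60, and -0.33 without the length and GC trend. Many of these genes have processed pseudogenes of near-identical sequence, so single values are uncertain.

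Genes of the tissues around the retina were also counted, and the mean share of the lens list, 0.177%, was above that of ganglion cell genes, 0.0869%. Apart from the sex-linked genes, lists of these tissues held the largest shares of variable genes of any list with at least 3 members at 5 CPM. The lens list held 0.155%, 0.125% and 0.251% of counts. Cryaa (chromosome 17, 31677807 to 31681733), the chaperone-like alpha-crystallin that the retina also expresses, was at 388, 361 and 676 CPM, and Crybb1, a beta-crystallin, at 145, 124 and 258 CPM. The gamma-crystallin genes Cryge and Crygd were at 125, 75.9 and 158 CPM and at 152, 98.3 and 216 CPM, and their near-identical copies may share reads. Of the 17 lens genes averaging at least 5 CPM, 11 were variable and control c was highest for all 17, against 30.7% of all genes. With the length and GC trend removed 4 of the 17 were variable, and the median log2 ratio of b over c was -0.78 in place of -1.06. The lens fibre filament gene Bfsp2 had the widest ratio, 2.79 (12.7, 10.1 and 28.2 CPM), while Mip, the lens fibre aquaporin, had a mean of 2.28 CPM, and Lim2 had no count in control a or b.

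Pigment epithelium genes held 0.0287%, 0.0324% and 0.0608% of counts. Control c was highest for 8 of 8, against 30.7% of all genes, and 5 of 8 were variable. Ttr, the carrier of thyroxine and retinol, was at 76.7, 74.8 and 165 CPM, and the melanosome genes Pmel and Dct at 75.7, 104 and 184 CPM and at 44.6, 51.8 and 85.0 CPM. Rgr, a photoisomerase, had the widest ratio at 2.51. The defining visual cycle genes were lower, with Rpe65 at 2.87, 2.77 and 8.10 CPM and Lrat at a mean of 1.54 CPM. Dct, Rgr and Pmel have sources outside the pigment epithelium as well, such as iris, ciliary or choroid pigment cells and Müller glia. What part carried-over tissue plays in these levels was not tested.

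Red blood cell genes differed in another way. Hba-a1 was at 75.3, 200 and 195 CPM and Hbb-bs at 72.4, 155 and 183 CPM, Hbb-bt at 7.36, 18.6 and 20.9 CPM, and the heme synthesis gene Alas2 at 5.36, 12.4 and 13.6 CPM. All 5 genes averaging at least 5 CPM were variable and lowest in control a, against 14.8% of all genes lowest there. Hba-a2 had the widest ratio, 2.96. Collagen genes Col1a1 (2.64, 10.9 and 19.2 CPM), Col1a2 and Col3a1 and the muscle actin gene Acta1 (4.57, 8.52 and 21.5 CPM) were lowest in control a and highest in control c. The muscle myosin light chain genes Mylpf and Myl1 were at 7.51, 7.53 and 12.1 CPM and at 0.906, 1.59 and 5.39 CPM. The matrix gene Lum had a mean of 0.0892 CPM, the muscle gene Tnnc2 had no counts, and the epithelial keratin genes Krt15, Krt12, Krt5 and Krt14 were at means of 3.84, 0.870, 0.286 and 0.145 CPM.

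Other cells that belong to the retina gave small shares. Microglia genes held 0.0145%, 0.0125% and 0.0156% of counts and 0 of 11 were variable. The complement genes C1qa and C1qb were at 11.7, 11.2 and 13.2 CPM and at 16.3, 14.6 and 16.1 CPM. Ctss had the widest ratio, 1.83. Among astrocyte genes Pdgfra was at 63.5, 65.4 and 68.2 CPM and Gfap, which Müller glia make under stress, at 34.2, 19.1 and 28 CPM (ratio 1.79). S100b was at 6.98, 5.72 and 9.13 CPM, and 0 of 3 astrocyte genes were variable. The oligodendrocyte genes Cnp (41.4, 57.7 and 30.7 CPM, ratio 1.88) and Mbp had means of 43.3 and 39.8 CPM, but the myelin genes Mog and Mag had means of 0.866 and 0.463 CPM and Mobp none, and the mouse retina carries no myelin.

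The vessel list was dominated by Kdr (chromosome 5, 75932827 to 75978458), the VEGF receptor of endothelium, at 135, 268 and 62.2 CPM, a ratio of 4.30. Other endothelial genes did not all share its order. Pecam1 was at 8.79, 11.2 and 4.94 CPM, Cldn5 at 7.09, 4.46 and 4.89 CPM, and Cdh5 at 1.70, 1.44 and 0.864 CPM. The pericyte gene Rgs5 was at 57.5, 51.4 and 69.8 CPM. Per length Kdr was at 53.8 length-scaled units, against 11.8 for Cldn5, 6.83 for Esam, 4.13 for Pecam1 and 0.975 for Cdh5. Kdr is also known in retinal progenitors and horizontal cells of the mouse, and which cells held it here was not measured.

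**Figure D3:**
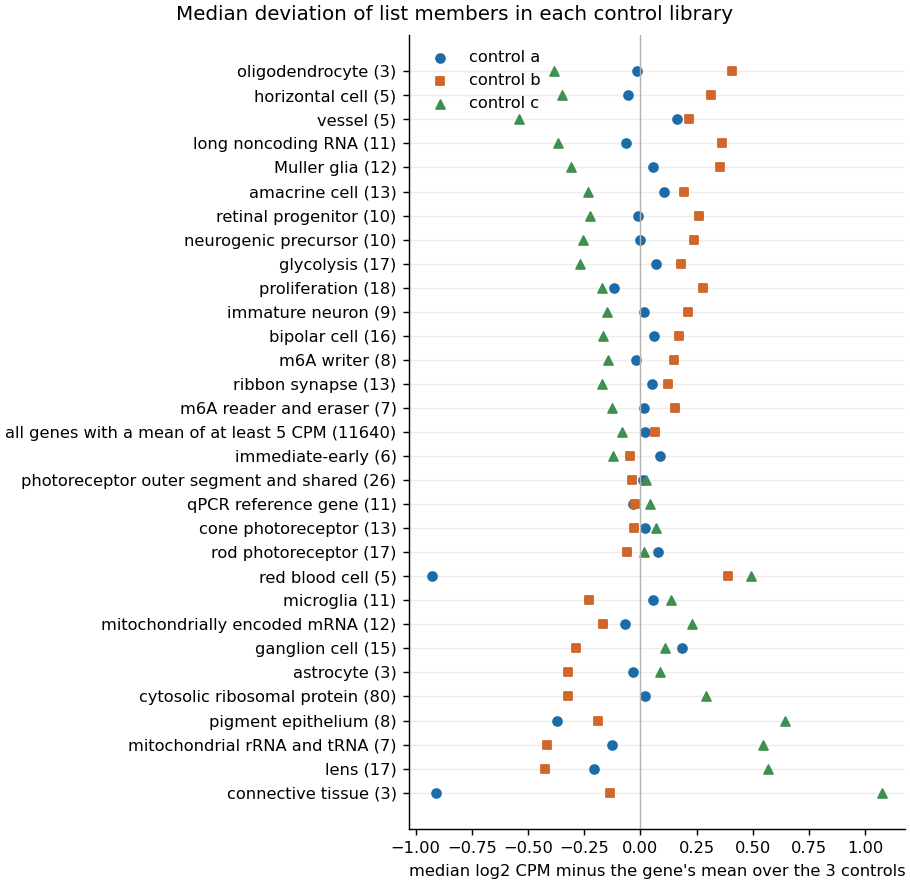
Median over list members of log2 CPM minus the gene's own mean over the 3 controls (horizontal axis), 1 point per library, for lists with at least 3 members at a mean of at least 5 CPM (number in brackets), without the sex-linked list. Müller glia genes lie at 0.35 in control b and -0.31 in control c, ribosomal protein genes at -0.32 and 0.29, and red blood cell genes at -0.93 in control a.

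The libraries themselves did not differ evenly. Control a and b correlated across genes with a Pearson r of log2 CPM of 0.985, a and c with 0.973 and b and c with 0.947; this is across 11640 genes, which are not independent replicates. Between a and b 74.5% of genes lay within 1.25-fold, between a and c 67.0% and between b and c 45.1%. A difference of at least 2-fold was seen in 30, 77 and 554 genes. Control a thus lay between the other two.

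The median coefficient of variation of a gene was 14.3% (quartiles 8.67% and 21.5%), while counting error alone would give 3.13%. It was 17.8% for genes of 5 to 10 CPM and 12.9% for those of 100 to 500 CPM, and at 1000 CPM or more it was 14.6% against a counting error of 0.509%. The common biological coefficient of variation, estimated with edgeR over 15691 genes and TMM scaling, was 0.188. Leaving out control a gave 0.246, leaving out b 0.160 and leaving out c 0.138.

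**Figure D4:**
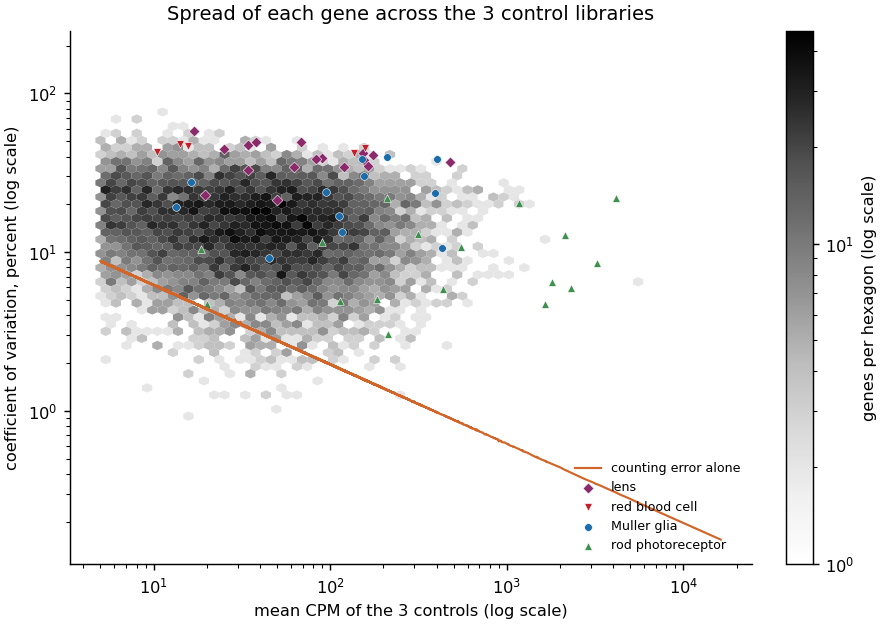
Coefficient of variation in percent (vertical axis) against mean CPM (horizontal axis), both on log scales, for the 11640 genes averaging at least 5 CPM; grey hexagons give the number of genes, the orange line counting error alone, and coloured points 4 gene lists. Lens, red blood cell and several Müller glia genes lie in the upper part of the cloud, while rod genes lie at or below its middle apart from a few such as Sag.

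Of the 580 variable genes, 458 were highest in control b and lowest in control c (79.0%), 80 were highest in c and lowest in b (0.687% of the 11640), and 42 had another order. With TMM scaling 472 genes were variable and 50% had the first order, and with DESeq2 size factors 473 and 47.6%, so that the excess in that direction depends on the scaling. These scalings moved the median log2 ratio of b over c of all genes from 0.15 to 0.00 and to -0.01. Without control c 36 genes were variable, without control b 77 and without control a 563. Just outside the threshold lay Ankzf1 and just inside it Arhgef19.

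Transcript length went with the difference between control b and c. When genes were split into 5 equal bins by principal transcript length, from the shortest to the longest, the median log2 ratio of b over c was -0.28, 0.02, 0.17, 0.26 and 0.46. In the longest bin, 248 genes or 10.7% were variable, 236 of them highest in b and lowest in c, and in the shortest bin 95, of which 72 were highest in c. Across 11599 genes Spearman's coefficient with the log2 ratio was 0.475 for principal transcript length and 0.187 for GC content, given as a description of genes of the same libraries. Removing a smooth trend on both from each library took away 33.0% of the variance of the log2 deviations and left 219 variable genes, 149 of them also variable before. The low ribosomal protein and high Müller glia levels of control b relative to c remained in direction after this, as did the lens and pigment epithelium levels of control c, whereas those of mitochondrially encoded mRNA and of the ribbon synapse list changed sign.

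**Figure D5:**
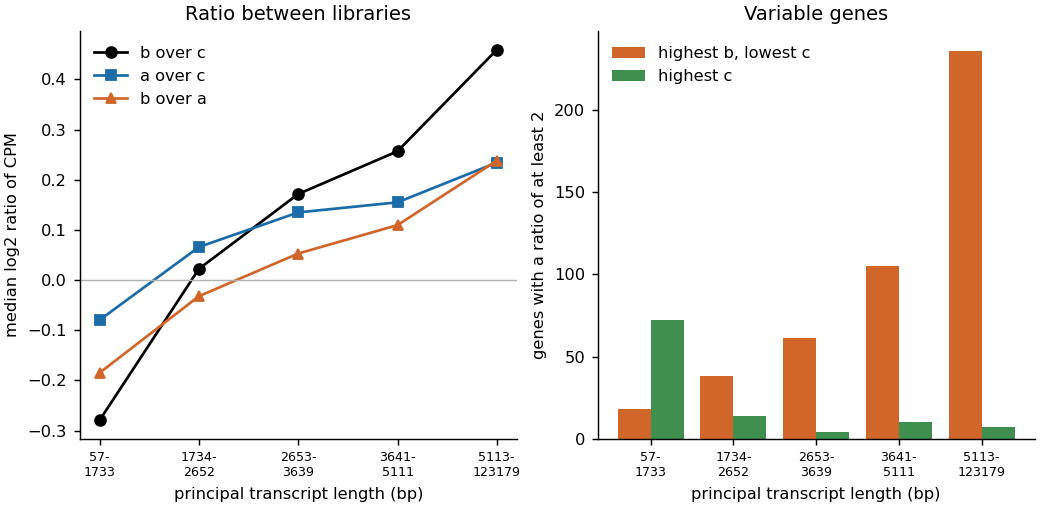
Left, median log2 ratio of CPM between pairs of control libraries (vertical axis) by bin of principal transcript length in bases (horizontal axis, 5 bins of equal size); right, number of genes with a highest-to-lowest ratio of at least 2 in each bin, split by library order. The ratio of b over c goes from -0.28 in the shortest bin to 0.46 in the longest, where 236 variable genes are highest in b and lowest in c.

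The genes with the widest range were sex-linked. Xist, the RNA that silences an X chromosome in females, was at 1108, 1591 and 0.617 CPM. The Y-linked genes Eif2s3y (92.9 CPM), Ddx3y (86.7), Uty (77.9) and Kdm5d (36.5) were counted in control c and had no count in control a or b. Control c was thus the 1 library with Y-linked counts and nearly no Xist, and the labels give no sex. This difference goes with every value of control c given above, and its part in them was not tested.

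After these came Col1a1 (ratio 7.27) and Acta1 (4.72), then genes highest in control b: the netrin receptor gene Dcc (9.73, 21 and 4.69 CPM), Tmem131l (17.4, 34.9 and 7.86 CPM), Kdr, the DNA polymerase gene Pole (4.90, 11.6 and 2.80 CPM) and Thsd7b (4.72, 8.23 and 2.18 CPM). Among the genes passed over for their clone-type symbols, Gm42418 was at 477, 386 and 1168 CPM. It overlaps the ribosomal RNA repeat on chromosome 17, and it was highest in control c, as were the mitochondrial ribosomal RNAs.

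At the other end, 10 genes averaging at least 50 CPM had nearly equal CPM in the 3 libraries. Fkbp4, a cochaperone of steroid receptors, was at 303, 303 and 302 CPM, the reticulon gene Rtn3 at 557, 558 and 559 CPM and the proton pump gene Atp6v1a at 459, 460 and 462 CPM. Ints10 of the Integrator complex, the dynactin gene Dctn4, Angel2, the cap-binding gene Ncbp3, R3hdm4, Rabgap1 and the polarity gene Pard6b completed the 10, and the last had the widest ratio among them, 1.01. Being picked for the smallest range with library totals, they are a description of these libraries. TMM multiplies the totals of control a, b and c by 1.01, 1.05 and 0.948, so equal CPM do not stay equal with it.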

How the data were processed

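Per the labels' protocols, poly(A) RNA was isolated with TRIzol and a NEBNext Ultra kit was used for the libraries. Deposited values are raw counts of reads per gene, not normalized. CASAVA, HISAT2, featureCounts and the build mm10 are named in the submitters' processing notes. The strand setting, the tool versions and the rule for reads that match several places are not stated there, so overlapping, antisense and near-identical genes are uncertain. Of 43432 gene IDs 42462 matched a symbol and 42548 the GENCODE M21 annotation of GRCm38, which gave lengths and 1-based coordinates.

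The 3 control columns were used. CPM is counts over the library total; per-length values divide by union exon length, or by principal transcript length as an alternative chosen after seeing the data. Genes averaging at least 5 CPM were called variable at a highest-to-lowest ratio of at least 2, with 0 counts set to 3. Dispersion came from edgeR 4.0.16 in R 4.3.3 (filterByExpr, TMM, intercept only); with 1 group no difference was tested. Alternatives were TMM and DESeq2 1.42.0 size factors, other thresholds, each library left out, lists left out, no mitochondrial genes and removal of a lowess trend on length and GC content (statsmodels 0.14.6; chosen after seeing the data). The dispersion step was tested on simulated data. Counts of every pair of libraries differed beyond sampling noise (chi-square per degree of freedom of at least 26.7), so each was kept as a sample.

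Members and the 30 gene lists were chosen with earlier results of these data known. Named genes were the top 20 by CPM and 10 by per-length level, the m6A writers, in each list the 3 highest per length and the widest ratio, and the 15 widest and 10 narrowest ratios, passing over clone-type symbols; the other genes were named after their values were seen. Start regions come from RefSeq (GRCm38.p6), without chromosome 18. Some genes that these rules name are not reported here.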

Additional observations from a re-analysis of the deposited data

How the results depend on the processing

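No paired analysis was possible because the libraries form 1 group and no second group was compared. On the per-length scale 485 genes held 50% of the total (497 by principal transcript), rod genes held 1.17% (1.69%), mitochondrially encoded mRNA 8.16% (5.47%) and ribosomal protein genes 9.08% (11.4%). Variable genes numbered 1194 of 14630 at a mean of at least 1 CPM, 161 at 50 CPM, 3161 at a ratio of 1.5, 46 at a ratio of 3 and 219 with the length and GC trend removed; leaving out 1 library gave 36 to 563. The share highest in b and lowest in c was 50% with TMM, 47.6% with DESeq2 size factors, 64.2% at 1 CPM, 64.0% at a ratio of 1.5, 63.0% at a ratio of 3, 83.1% without the sex-linked and other-tissue lists and 55.3% with the trend removed. The biological coefficient of variation was 0.138 to 0.246 with 1 library left out, 0.201 with no low-count filter and 0.191 from DESeq2. The median log2 ratio of b over c changed sign for immediate-early genes (-0.084 with TMM, -0.093 with DESeq2 size factors, -0.10 with the trend removed) and, with the trend removed, for the ribbon synapse (-0.21), red blood cell (0.16), m6A reader and eraser (-0.067), mitochondrially encoded mRNA (0.39) and mitochondrial rRNA and tRNA (0.24) lists. The causes were not tested. The medians of the other lists with at least 3 members at 5 CPM kept their sign under TMM, DESeq2 size factors and trend removal, but that of long noncoding RNAs fell from 0.74 to 0.0030 with the trend removed. That removal also lowered the variable members from 4 to 2 for bipolar, 3 to 1 for Müller glia, 3 to 2 for mitochondrially encoded mRNA, 2 to 0 for progenitor, 2 to 1 for precursor, 2 to 1 for vessel, 1 to 0 for amacrine, 1 to 0 for horizontal and 2 to 0 for mitochondrial rRNA and tRNA genes, and raised ganglion cell genes from 0 to 2.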
